A study of Mus musculus with 32 samples.

Results

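Txnip and its relatives Arrdc1, Arrdc2, Arrdc3, Arrdc4 and Arrdc5 form the α-arrestin family, and their transcripts were followed in mouse brown adipose tissue. All array probes that carry 1 of these 6 gene names and passed the study's intensity filter were taken, which gave 10 probes for 5 of the 6 genes out of 37306 probes for 24523 gene names. The study compared mice lacking 1 or both isoforms of ChREBP, the glucose-responsive transcription factor encoded by Mlxipl. RNA of interscapular brown fat from C57BL6/J males was hybridized to 32 one-color Agilent arrays, 8 for each of 4 groups. The groups were Mlxipl-null mice that lack both ChREBPα and ChREBPβ (total KO), the WT littermates of that line (total WT), mice in which CRISPR/Cas9 removed the exon specific to ChREBPβ (β KO), and the WT littermates of that second line (β WT). Every mouse of the 4 groups had gone without food for 24 hours and then had access to food and to drinking water with 20% glucose for 18 hours, so the WT mice were also glucose-loaded and no fasted group was included here. Both deletions were present in the whole body from conception, and the age of the mice was not given in the sources used here.

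α-Arrestins are cytosolic adaptors that recruit HECT-type ubiquitin ligases to membrane proteins and thereby steer them into endocytosis. Txnip, which also binds thioredoxin, removes the glucose transporters Slc2a1 and Slc2a4 from the cell surface, and Arrdc4 acts in a similar manner on glucose uptake. Both genes are textbook glucose-sensing genes: when phosphorylated glucose accumulates, MondoA (Mlxip) or ChREBP pairs with Mlx and binds E-box-like carbohydrate response elements in their promoters. The 2 factors share such elements, so a gene of this kind can be driven by MondoA in a cell without ChREBP.

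The promoters of Txnip and Arrdc4 are shown because they carry letters of the E-box type recognized by Mlx dimers. The sequences are those of RefSeq on mouse GRCm38.p6, written 5′ to 3′ on the gene's own strand. The Txnip stretch, chr3:96557817-96557936 on the plus strand, runs from 140 to 21 bases before the start of transcription and the capitals mark CACGAG. The Arrdc4 stretch, chr7:68749349-68749468 on the minus strand, runs from 230 to 111 bases before the start and the capitals mark CACGTG.
Txnip: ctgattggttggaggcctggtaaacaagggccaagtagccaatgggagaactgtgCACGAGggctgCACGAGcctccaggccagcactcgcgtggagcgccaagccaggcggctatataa
Arrdc4: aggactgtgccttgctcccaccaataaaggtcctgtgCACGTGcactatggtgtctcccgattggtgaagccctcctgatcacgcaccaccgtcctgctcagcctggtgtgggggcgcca
The 2 copies of CACGAG in Txnip began 85 and 74 bases before the start and together matched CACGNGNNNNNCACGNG, a pair of E-box-like letters 5 bases apart. Over all 32851 RefSeq promoter windows of 27025 genes, each 250 bases before to 50 after the start and searched on both strands, 16 windows (0.0487%) held that spaced pair. No other member window held it. CACGTG alone was held by 7.15% of the windows and CACGAG alone by 6.47%, and the Arrdc4 window held 1 CACGTG at 193 bases before the start. CCAAT, the letters recognized by NF-Y and held by 37.4% of the windows, occurred 6 times in the Arrdc4 window, 3 times each in those of Arrdc2 and Arrdc5 and 2 times in that of Txnip. The Arrdc1 window held 2 copies of CACGAG and that of Arrdc2 held 1, whereas neither Arrdc3 nor Arrdc5 had an E-box of either spelling in its windows. These matches describe letters only.

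Across the 32 arrays, 64.4% to 71.1% of the spots that were no controls were well above background. The brightest of the 3 Mlxipl probes lay between 15.98 and 16.33 on the log2 scale in total WT, 13.49 and 13.91 in total KO, 16.15 and 16.55 in β WT and 14.68 and 14.99 in β KO, so each KO group lay below its littermates without overlap. A second Mlxipl probe (A_55_P2045158) had means of 11.22, 11.36, 11.44 and 11.36 in the same order. The third (A_55_P2728555) had means of 11.11, 10.34, 11.76 and 10.62, lower in each KO group than in its littermates. The brown adipocyte marker list, 8 of 8 genes measured and led by Ucp1, averaged 13.6 to 14.6 on each array. The mean of 9 skeletal muscle markers was 12.2 to 15.9 in total WT, 13.9 to 15.5 in total KO, 5.62 to 11.6 in β WT and 5.71 to 11.1 in β KO, so that the 2 lines did not overlap. The mean of 7 liver markers reached from 6.09 to 13.4 and was spread widely within groups. Values below are log2 median pixel intensities after quantile normalization, differences carry their SE from limma, and p-values were adjusted over all 37306 probes of a comparison. They measure the spread between these mice, and an array of a whole tissue cannot separate fewer cells of a type from less RNA per cell.

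Txnip had 2 probes on the array, at chr3:96365340-96365399 and chr3:96364206-96364265 of mm9, both designed on its RefSeq transcript. The brighter Txnip probe (A_66_P131361) had its lowest, median and highest array at 15.31, 15.82 and 16.11 in total WT and at 14.88, 15.42 and 15.98 in total KO. It stood at 14.28, 15.31 and 15.88 in β WT and at 15.12, 15.50 and 15.95 in β KO. All 4 groups overlapped. In the order total WT (mean 15.75 ± 0.31, SD, n = 8), β KO (15.54 ± 0.33), total KO (15.39 ± 0.38) and β WT (15.19 ± 0.48), each step between neighbors was smaller than these SDs.

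**Figure D1:**
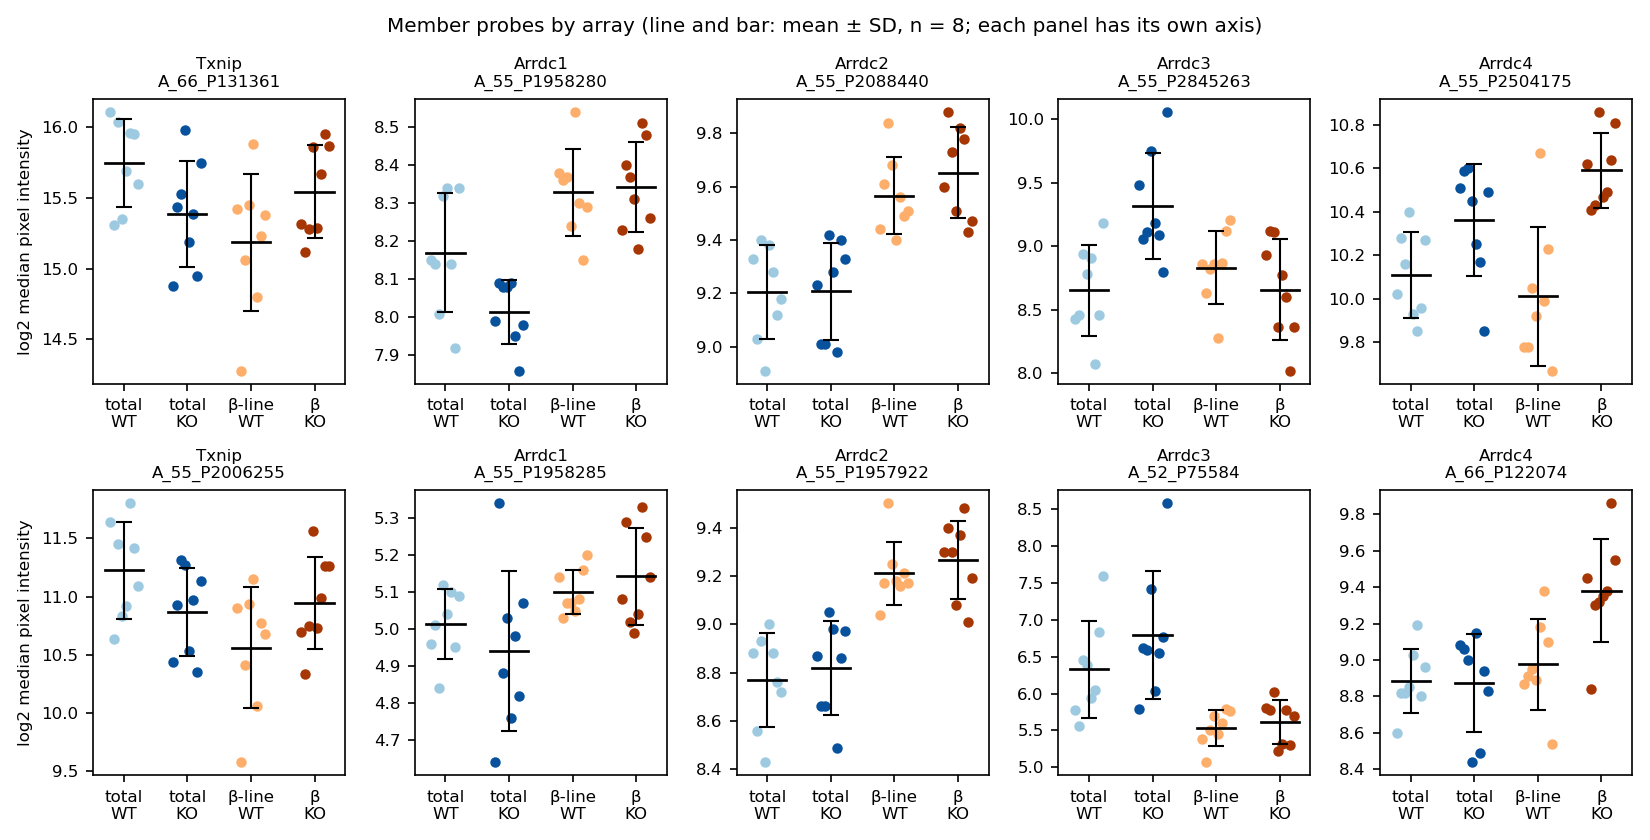
Log2 median pixel intensity of the 10 member probes, 1 point per array, for total WT, total KO, β WT and β KO (n = 8 each); lines and bars give mean ± SD and each panel has its own axis. Arrdc4 lies highest in β KO for both probes, Arrdc3 A_55_P2845263 lies highest in total KO, and Arrdc2 lies higher in both groups of the β line than in both groups of the total line.

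In total KO, Txnip was lower than in the WT littermates by a mean that did not pass the test. The log2 difference of the brighter probe was -0.36 ± 0.18 (95% confidence interval -0.73 to 0.01, limma adjusted p = 0.106), and 2 of the 8 null mice exceeded the average of their WT littermates. The second probe (A_55_P2006255) gave -0.36 ± 0.20 (adjusted p = 0.16). With slide as a block the brighter probe passed at -0.49 (adjusted p = 0.0306), and it also passed without replicate 4 of total KO at -0.45 (adjusted p = 0.0471). Few of the 15 slides held both a KO and a WT array of the same line. A fit with slide as a block therefore reached each KO effect largely through arrays of the other line, here and below. Whether slides had an effect of their own was not tested. The 2 probes moved alike: their difference within an array was 4.53 in both groups.

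In β KO, the mean of Txnip lay on the other side of its WT littermates. The brighter probe differed by 0.36 ± 0.18 (95% confidence interval -0.01 to 0.73, limma adjusted p = 0.387) and the second by 0.39 ± 0.20 (adjusted p = 0.423), and for each probe 7 of the 8 β KO mice exceeded the average of their littermates. Neither passed, and with slide as a block the values were -0.09 and -0.15. Without replicate 2 of β WT, the lowest array, they were 0.23 and 0.25, and neither passed. Whether the 2 KO effects differed was tested directly. It was 0.72 ± 0.26 on the log2 scale, a 1.65-fold ratio, for the brighter probe (limma adjusted p = 0.0376) and 0.75 ± 0.29 for the second (adjusted p = 0.0584). The call of the brighter probe was lost with slide as a block (0.40, adjusted p = 0.185), with wash batch as a block (0.66, adjusted p = 0.0563), with the deposited log2 table (0.68, adjusted p = 0.0622), without a filter on dim probes (0.72, adjusted p = 0.0514) and on 14 of the 32 occasions when 1 array was left out. Those arrays were replicates 1, 3, 6 and 7 of total WT, 1, 5 and 7 of total KO, 2, 3 and 6 of β WT and 4, 6, 7 and 8 of β KO, with values of 0.59 to 0.70 and adjusted p of 0.0515 to 0.0641. The second probe passed without any of 8 arrays (replicates 2 and 4 of total WT, 3 and 4 of total KO, 1, 4 and 5 of β WT and 2 of β KO), at 0.79 to 0.83 (adjusted p 0.0329 to 0.0491), and was 0.33 (adjusted p = 0.343) with slide as a block. With muscle and liver marker means as covariates the 2 probes gave 0.82 (adjusted p = 0.0111) and 0.85 (adjusted p = 0.0198). The second also passed with replicate number as a block (0.75, adjusted p = 0.0368) and with median intensity scaled to the 75th percentile (0.78, adjusted p = 0.043). It passed too with only probes well above background on all arrays (0.75, adjusted p = 0.0482).

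Arrdc4, the closest glucose-sensing companion of Txnip, was the member that changed in β KO. Its 2 probes lie 4453 bases apart, at chr7:75886496-75886555 (A_55_P2504175, designed on transcript variant 2) and chr7:75882043-75882102 (A_66_P122074, variant 1) of mm9. The former had its lowest, median and highest array at 9.67, 9.95 and 10.67 in β WT and at 10.41, 10.55 and 10.86 in β KO. Every β KO array exceeded the mean of β WT, and the groups overlapped through 1 WT array, the highest. Arrdc4 was higher in β KO by 0.58 ± 0.12 (1.49-fold, 95% confidence interval 0.34 to 0.82, limma adjusted p = 0.00394). It was the only 1 of 10 member probes called in that comparison, where 2.55% of all probes were called and 1.3% called higher and 1.26% lower.

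The variant 1 probe of Arrdc4 had its lowest, median and highest array at 8.54, 8.93 and 9.38 in β WT and at 8.84, 9.37 and 9.86 in β KO, and 4 of 8 KO arrays exceeded every WT array. Its difference of 0.40 ± 0.12 missed the threshold (limma adjusted p = 0.0655). It passed without replicate 5 or 6 of β WT or replicate 2 of β KO, at 0.43 to 0.48 (adjusted p 0.0174 to 0.041), and also with normexp background correction (0.38, adjusted p = 0.0499) and with array weights (0.42, adjusted p = 0.0405). Within the 4 wash batches, both probes were higher in β KO in each batch, by 0.38 to 0.95 and by 0.17 to 0.49. Batches 1 and 3 held 1 β WT array each, and batch 4 held 1 β KO array. With slide as a block the variant 2 probe gave 0.54 and was not called (adjusted p = 0.109).

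In total KO, Arrdc4 was not called. The variant 2 probe ran from 9.85 to 10.40 in total WT with a median of 10.09 and from 9.85 to 10.60 in total KO with a median of 10.47. The difference was 0.26 ± 0.12 (limma adjusted p = 0.0764), which passed with array weights (0.29, adjusted p = 0.021) and without replicate 4 of total WT (0.30), replicate 7 of total KO (0.33) or replicate 5 of β WT (0.26). With slide as a block it was 0.08 (adjusted p = 0.694). The variant 1 probe differed by -0.01 ± 0.12 (adjusted p = 0.957). The gap from one KO effect to the other was 0.32 ± 0.17 (adjusted p = 0.168) and 0.41 ± 0.17 (adjusted p = 0.0749), so that a larger effect in β KO than in total KO was not shown for Arrdc4. The first of these passed without replicate 5 of β WT (0.42, adjusted p = 0.0344), the second without replicate 6 of β WT (0.47, adjusted p = 0.0375) or replicate 2 of β KO (0.49, adjusted p = 0.0229).

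**Figure D2:**
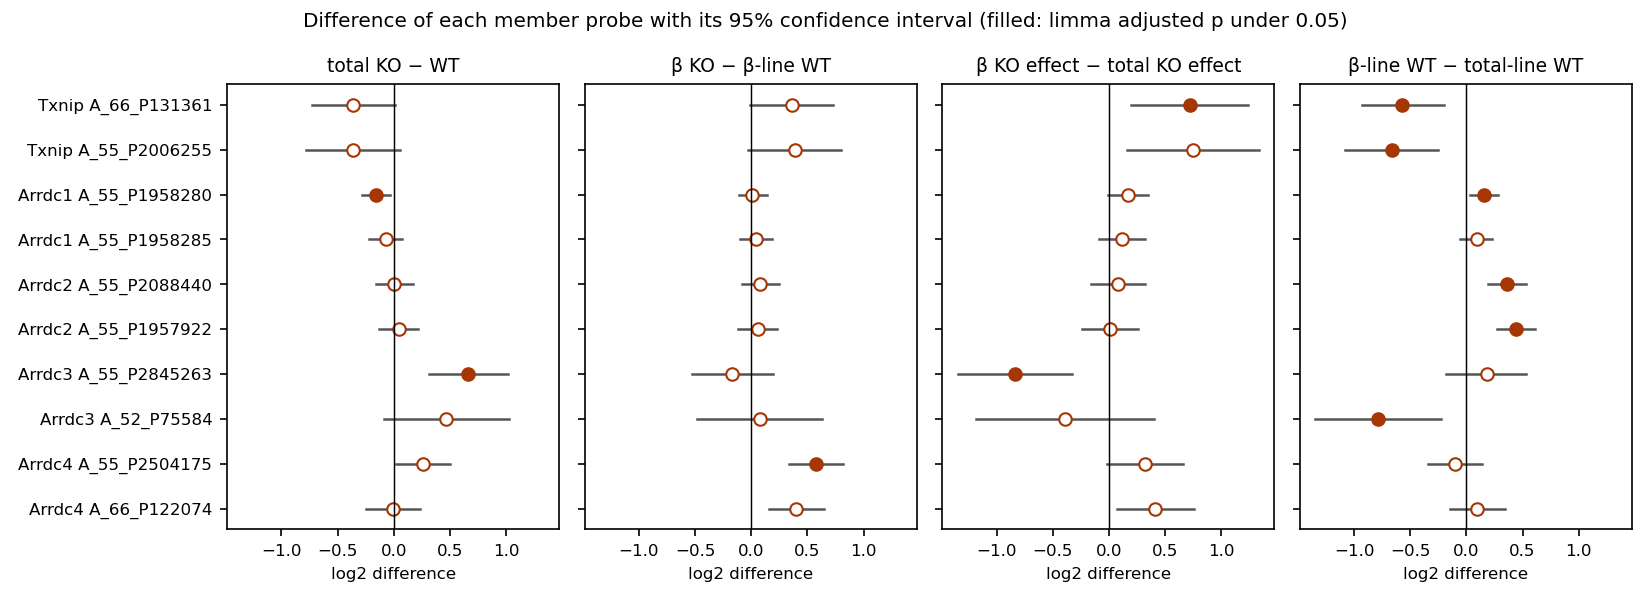
Log2 difference of each member probe with its 95% confidence interval from limma in the 4 comparisons; filled points have an adjusted p under 0.05. Arrdc3 A_55_P2845263 is the largest called difference in total KO (0.66) and Arrdc4 A_55_P2504175 the only one in β KO (0.58).

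Within a group, Txnip and Arrdc4 did not vary together in 1 common way. Pearson's r between the brighter probes over 8 arrays was -0.71 in total WT (exact permutation p = 0.0568, adjusted over the 4 groups 0.114), with Spearman's rho of -0.60 (p = 0.132, adjusted 0.265). It was 0.46 in total KO (exact permutation p = 0.253, adjusted 0.253; rho 0.31, p = 0.462, adjusted 0.616) and 0.49 in β WT (p = 0.214, adjusted 0.253; rho 0.14, p = 0.752, adjusted 0.752). In β KO, r was 0.78 (exact permutation p = 0.0263, adjusted 0.105) and rho 0.88 (p = 0.00724, adjusted 0.029). Without the 2 arrays farthest from the median of Txnip, r was -0.31 in total WT, 0.82 in total KO, -0.46 in β WT and 0.80 in β KO. The signs in total WT and in β KO were thus opposite, and their difference was not tested.

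Arrdc3, which binds β-adrenergic receptors and promotes their sorting after stimulation, was the member with the largest change in total KO. Its 2 probes lie 6388 bases apart on chromosome 13, at chr13:81035204-81035263 (A_55_P2845263, designed on the RefSeq transcript) and chr13:81028816-81028875 (A_52_P75584, designed on an Ensembl transcript) of mm9. The RefSeq probe had its lowest, median and highest array at 8.07, 8.62 and 9.18 in total WT and at 8.80, 9.15 and 10.06 in total KO. Every total KO array exceeded the mean of its littermates, and 4 of the 8 exceeded all WT arrays. Arrdc3 was higher in total KO by 0.66 ± 0.18 (1.59-fold, limma adjusted p = 0.00242), and by 0.44 to 1.14 within each of the 4 wash batches. It and Arrdc1 were the 2 of 10 member probes called in total KO, where 43.2% of all probes were called, 22.7% higher and 20.5% lower.

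In β KO the RefSeq probe of Arrdc3 ran from 8.02 to 9.12 with a median of 8.69, against 8.28 to 9.21 with a median of 8.86 in β WT. The difference was -0.17 ± 0.18 (limma adjusted p = 0.767). The 2 KO effects differed by -0.84 ± 0.25 (1.79-fold, limma adjusted p = 0.0126). With Txnip, this made 2 of 10 member probes called for the difference between KO effects, against 24.1% of all probes (11.7% higher, 12.4% lower). The Arrdc3 call was kept in every fit without 1 array, at -0.91 to -0.73, and was lost with slide as a block (-0.75, adjusted p = 0.086). The Ensembl probe gave 0.47 ± 0.27 in total KO (adjusted p = 0.172) and 0.08 ± 0.27 in β KO (adjusted p = 0.958). It passed in total KO without replicate 8 of total WT, its highest WT array, at 0.65 (adjusted p = 0.0413), and fell to 0.21 (adjusted p = 0.483) without replicate 8 of total KO.

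The probes of Arrdc3 parted between the 2 lines. Within an array, the RefSeq probe minus the Ensembl probe averaged 2.33 ± 0.54 (SD, n = 8) in total WT, 2.52 ± 0.67 in total KO, 3.30 ± 0.23 in β WT and 3.05 ± 0.29 in β KO. The 2 WT groups differed by 0.97 (exact permutation p = 0.000466 over 12870 splits of the arrays; adjusted p = 0.00699 over 15 such tests of 5 genes in 3 comparisons), and 7 of 8 β WT arrays exceeded every total WT array. This test was chosen after the values were seen. It was the only 1 of the 15 to pass, and the difference was 0.38 to 1.38 within the 4 wash batches and 0.86 to 1.06 when 1 array was left out. The Ensembl probe itself ran from 5.56 to 7.60 in total WT and from 5.07 to 5.79 in β WT, with 6 of 8 total WT arrays above every β WT array (-0.79 ± 0.27, limma adjusted p = 0.0211; without replicate 8 of total WT -0.61, adjusted p = 0.061; with normexp -0.51, still called). The RefSeq probe differed between the WT groups by 0.18 ± 0.18 (adjusted p = 0.448). The muscle markers also separated the 2 lines, and with their mean as a covariate, chosen after the values were seen, the Ensembl probe gave -1.06 (adjusted p = 0.129), and with the liver marker mean -0.67 (adjusted p = 0.0579). Line and muscle marker level cannot be told apart here.

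**Figure D3:**
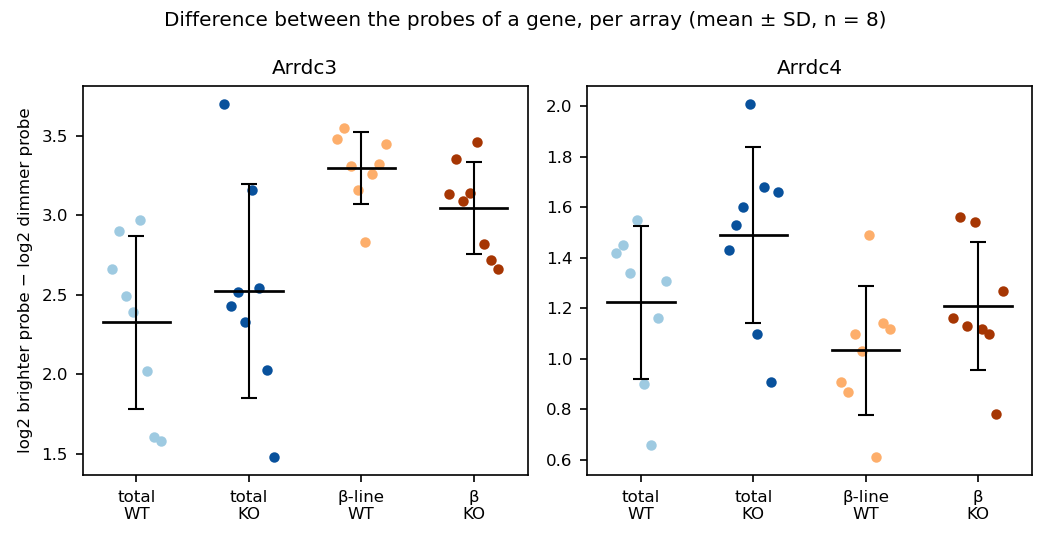
Log2 of the brighter probe minus log2 of the dimmer probe of Arrdc3 (left) and Arrdc4 (right), 1 point per array, with mean ± SD (n = 8). For Arrdc3 the difference averages 2.33 in total WT and 3.30 in β WT; for Arrdc4 the group means lie between 1.03 and 1.49.

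Arrdc1, which binds Tsg101 and drives budding of vesicles from the plasma membrane, moved little. The brighter Arrdc1 probe (A_55_P1958280) ran from 7.92 to 8.34 with a median of 8.15 in total WT and from 7.86 to 8.09 with a median of 8.03 in total KO. Every total KO array was under the mean of its littermates, and 1 was under all of them. The difference was -0.16 ± 0.06 (1.11-fold lower, limma adjusted p = 0.0403). It was no longer called without replicate 4, 5 or 8 of total WT or 1, 6, 7 or 8 of total KO, at -0.15 to -0.13 (adjusted p 0.059 to 0.0926), nor with slide as a block (-0.10, adjusted p = 0.338), with array weights (-0.13, adjusted p = 0.0653), with the median intensity scaled to the 75th percentile (-0.15), with dim probes kept or with its own 2 groups alone (-0.16 each). In β KO it differed by 0.01 ± 0.06 (adjusted p = 0.972). The second Arrdc1 probe was well above background on 6 of 8 total KO arrays and on 30 of 32 in all, and was called in no comparison.

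Arrdc2, a member whose cargo is less well described, was called in neither KO. Its 2 probes overlap, starting 11 bases apart at chr8:73359065-73359124 and chr8:73359054-73359113 of mm9, and are nearly 1 measurement. The brighter one (A_55_P2088440) differed by 0.00 ± 0.08 in total KO (95% confidence interval -0.16 to 0.17, limma adjusted p = 0.972) and by 0.08 ± 0.08 in β KO (-0.08 to 0.25, adjusted p = 0.753). Between the 2 WT groups it did not overlap: total WT arrays lay at 8.91 to 9.40 with a median of 9.23, and β WT arrays at 9.40 to 9.84 with a median of 9.53. The highest total KO array, at 9.42, reached into the β WT range. Arrdc2 was higher in β WT by 0.36 ± 0.08 (1.29-fold, limma adjusted p = 0.000762) and by 0.44 ± 0.09 (adjusted p = 0.000118) with the other probe. These were higher in each of the 4 wash batches, and with muscle and liver marker means as covariates they were 0.49 (adjusted p = 0.0198) and 0.63 (adjusted p = 0.00369). Because the muscle marker means of the lines share no range, that fit cannot separate line from muscle marker level for Arrdc2 either.

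The 2 groups of WT littermates differed at 6 of 10 member probes, 3 higher and 3 lower in β WT, against 39.2% of all probes (24.2% higher, 15% lower). Beside Arrdc2 and the Ensembl probe of Arrdc3, Arrdc1 was higher in β WT by 0.16 ± 0.06 (limma adjusted p = 0.0409), a call lost without any of 9 arrays at 0.12 to 0.16 (replicates 1, 2, 3, 6 and 7 of total WT and 1, 2, 3 and 5 of β WT, adjusted p 0.0569 to 0.109). The Arrdc1 call was also lost with wash batch as a block (0.14, adjusted p = 0.0623), with slide as a block (0.17, adjusted p = 0.0535), with both scalings to the 75th percentile (0.13 and 0.15), with dim probes kept and with these groups alone (0.16 each). Txnip was lower in β WT with both probes, at -0.57 ± 0.18 (1.48-fold, limma adjusted p = 0.0129) and -0.66 ± 0.20 (1.58-fold, adjusted p = 0.0102). Within the 4 wash batches the differences were -1.42 to -0.20 and -1.56 to -0.03. The lowest value of each range came from batch 1, which held 1 β WT array. With slide as a block the 2 probes gave -0.36 and -0.41 (both adjusted p = 0.0472). All 9 muscle markers were lower in β WT too, by a median of -6.20. With the muscle marker mean as a covariate the Txnip differences were -0.12 (adjusted p = 0.843) and -0.32 (adjusted p = 0.59), and with the liver marker mean they were -0.48 (adjusted p = 0.0398) and -0.53 (adjusted p = 0.0374). Since no β-line array reached the muscle marker level of a total-line array, the 2 cannot be told apart. Within lines, the muscle and liver covariates changed Txnip little, to -0.40 (adjusted p = 0.0527) in total KO and 0.42 (adjusted p = 0.217) in β KO for the brighter probe.

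**Figure D4:**
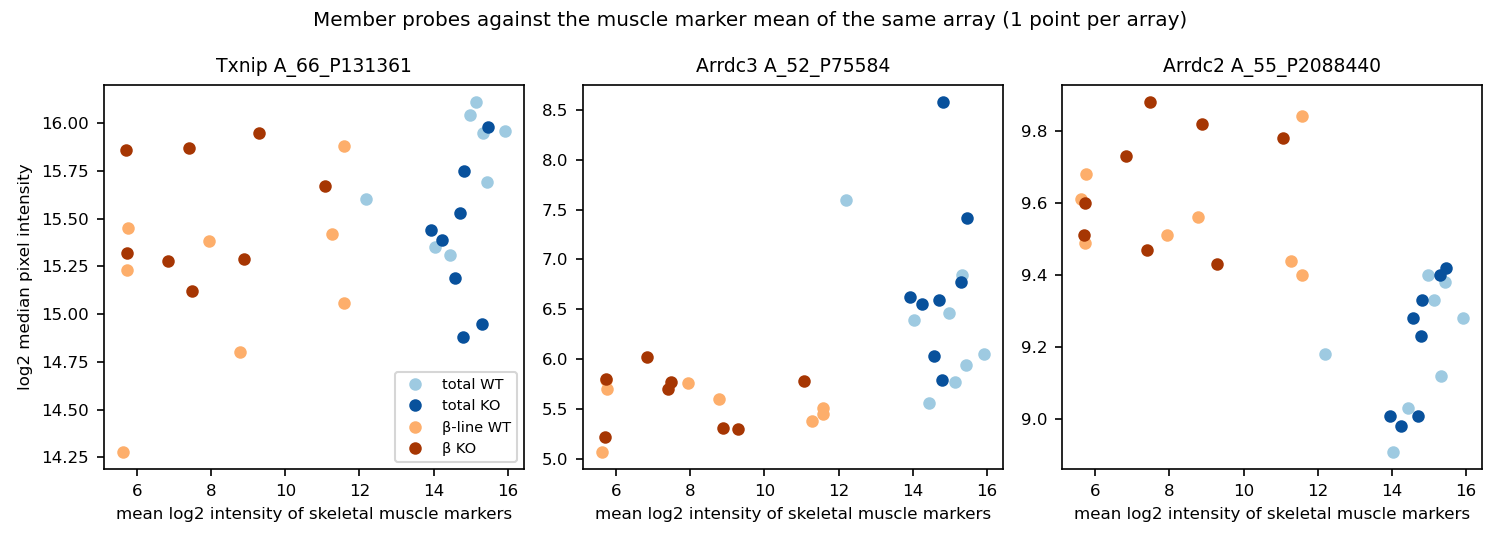
Log2 intensity of Txnip, the Ensembl probe of Arrdc3 and Arrdc2 (y axis) against the mean log2 intensity of 9 skeletal muscle markers on the same array (x axis), 1 point per array and 8 arrays per group. The total-line arrays lie at 12.2 to 15.9 and the β-line arrays at 5.62 to 11.6 on the x axis, so the lines share no range.

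Few member differences were large. When a change of at least 1.5-fold was required beside the adjusted p, 1 of 10 member probes remained in total KO (Arrdc3), against 9.66% of all probes, and 0 in β KO, against 0.531%. For the difference between KO effects 2 remained (Txnip and Arrdc3, against 7.5%), and between the WT groups 2 (the second Txnip probe and the Ensembl probe of Arrdc3, against 7.58%).

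Arrdc5 could not be followed. Its only probe, at chr17:56433764-56433823 of mm9, gave a signal well above background on only 6 arrays, of which 2 were total WT, 1 was β WT, 3 were β KO and 0 were total KO, and it failed the filter.

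The factors thought to drive Txnip and Arrdc4 were lower in total KO, each gene taken by its brightest probe. Mlxip, which encodes MondoA, was lower by 0.33 (-0.33 ± 0.10, limma adjusted p = 0.00767) and Mlx, the shared partner, was at -0.70 ± 0.09 (adjusted p = 3.23e-07), beside Mlxipl at -2.48 ± 0.07 (adjusted p = 2.02e-24). All 3 were thus called lower, where 44.1% of 24523 genes were called, 22.9% higher and 21.1% lower. In β KO only Mlxipl was called among them (-1.50 ± 0.07, adjusted p = 7.09e-17), where 2.7% of genes were called, 1.37% higher and 1.33% lower. This Mlxipl probe was not assigned to an isoform here. For brown fat of males without ChREBPβ, the paper reports more ChREBPα, both as mRNA and as protein. Mlxip stood at -0.02 ± 0.10 (adjusted p = 0.979) and Mlx at -0.15 ± 0.09 (adjusted p = 0.535).

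Of 10 other genes described as targets of MondoA or ChREBP, 5 were lower in total KO and none higher, beside 21.1% of all genes called lower. Pklr and G6pc had no probe that passed the filter, so 8 were measured. The hormone gene Fgf21 was at -2.42 ± 0.28 (limma adjusted p = 1.19e-08), hexokinase Hk2 at -1.94 ± 0.07 (adjusted p = 5.54e-21) and the G-protein regulator Rgs16 at -1.61 ± 0.30 (adjusted p = 4.78e-05), and Klf10 and Gpd1 were lower as well. Khk, Pfkfb3 and Tkfc were not called. In β KO only Rgs16 was called (-1.57 ± 0.30, adjusted p = 0.00227), where 1.33% of all genes were called lower. The list's median difference was -0.56 in total KO and -0.08 in β KO, beside 0.01 and -0.00 over all genes, and 0.00 and 0.08 over the 5 members.

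Among the cargo genes of the α-arrestins, 1 was called higher and 1 lower in total KO, where 22.9% of all genes were higher and 21.1% lower. Slc2a1, the basal glucose transporter, was higher (0.77 ± 0.07, limma adjusted p = 7.11e-11) and Slc2a4, the insulin-responsive transporter, was lower (-0.98 ± 0.05, adjusted p = 1.83e-17), while Adrb3, Insr and Itgb4 were not called. In β KO 1 of the cargo genes was called, where 2.7% of all genes were called and 1.37% called higher. The β3-adrenergic receptor Adrb3 was higher (0.55 ± 0.15, adjusted p = 0.0465), and all 8 β KO mice exceeded the average of their littermates. Of the 8 ligases and ESCRT partners, 3 were higher and 3 lower in total KO, where 22.9% of all genes were higher and 21.1% lower. The largest were Nedd4l (0.51 ± 0.07, adjusted p = 2.43e-07), Wwp1 (-0.32 ± 0.06, adjusted p = 1.48e-05) and Tsg101 (-0.30 ± 0.04, adjusted p = 1.32e-06). Nedd4l was also the only one of them called in β KO (0.30 ± 0.07, adjusted p = 0.0104).

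Of 13 genes of the thioredoxin system, 4 were higher and 2 lower in total KO, against 22.9% of all genes higher and 21.1% lower. Txn1, the cytosolic thioredoxin that Txnip binds, was lower (-0.67 ± 0.08, limma adjusted p = 1.49e-08), whereas the peroxiredoxins Prdx5 (0.34 ± 0.04, adjusted p = 1.36e-08) and Prdx6 (0.27 ± 0.06, adjusted p = 0.000668) were higher. In β KO only the glutaredoxin gene Glrx was called, higher by 0.36 ± 0.09 (adjusted p = 0.0166), where 1.37% of all genes were called higher. Of the 8 other arrestin-fold genes, the β-arrestins Arrb1 (-0.76 ± 0.09, adjusted p = 1.32e-08) and Arrb2 (-0.38 ± 0.09, adjusted p = 0.00137) were lower in total KO, where 21.1% of all genes were lower. None of the 8 was called in β KO, where 2.7% of all genes were called. Arrb1 stood there at -0.21 ± 0.09 (adjusted p = 0.248).

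Probes whose profile over the 32 arrays lay nearest to Arrdc4 were ranked by the mean absolute difference of centered log2 values, among probes at least as variable. The nearest of 6199 candidates were Ebf2, Angpt1, Pdgfd, Nme5 and Qk, with differences of 0.39 to 0.51 between β KO and β WT and of 0.47 to 0.65 between total KO and total WT, where that of Arrdc4 was 0.26. The ranking used these same values, group differences included, so likeness of the KO differences follows in part from the choice. Probes less variable than Arrdc4 could not enter.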

How the data were processed

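Brown adipose RNA of 32 mice, 4 groups of 8 by GEO's titles, was hybridized to Agilent 1-color SurePrint G3 mouse arrays. Per the file headers, Agilent Feature Extraction 10.10.1.1 read the intensity of each spot, and the deposited scanner files hold these intensities before normalization, with mm9 probe coordinates. The deposited series table holds log2 values after the authors' intensity filter, quantile normalization and median over repeated probes. Here that table was rebuilt from the scanner files: of 59305 spots that were no controls, 39985 had a found, positive and significant signal well above background on 26 or more of the 32 arrays or on 6 or more arrays of a group. Their log2 median pixel intensity was quantile normalized and the median of repeated spots was taken (37306 probes). The rebuilt values differed from the 37304 deposited probes by a mean of 0.00298. limma 3.58.1 (R 4.3.3) fitted 4 group means with Benjamini-Hochberg adjustment over all probes, called at 0.05; all SEs, intervals and adjusted p-values not named exact come from it. No spot was saturated, and the number of arrays limits the precision.

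Members, lists and tests were chosen with earlier results of these data known. All member probes were named; of the other lists, in which the brightest probe stands for a gene, the called genes with the largest change. A cargo gene and the genes nearest in profile to Txnip are not reported here. Deviations of same-numbered mice correlated over 0.1 in 0 of 8 pairs of the total line (-0.30 to 0.08) and in 6 of 8 pairs of the β line (-0.20 to 0.53); since not every pair did, the numbers were not taken as pairs. Arrays lay in 4 wash batches and on 15 slides, few of which held both groups of the same line. Promoters came from RefSeq (GRCm38.p6); 10 of 11 member probes matched RefSeq by accession. The alternatives are given in the closing section.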

Additional observations from a re-analysis of the deposited data

Results flagged for a closer look

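The log2 KO effect on Txnip (A_66_P131361) was -0.36 in total KO and 0.36 in β KO, neither of them called. These effects differed by 0.72, and those on Arrdc3 (A_55_P2845263) by -0.84, both past the limma test of the difference itself. With slide as a block neither difference was called (limma adjusted p = 0.185 and 0.086). The second Txnip probe did not pass (adjusted p = 0.0584). In β WT, replicate 3 stood apart at the upper end of the Arrdc2 probe A_55_P1957922 at 9.50, with a gap of 0.534 of the group's range, above the 95% limit for 8 arrays. It was the only one among 40 groups of 8 arrays so examined, and chance alone sets such a mark on about 1 in 20 groups.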

How the results depend on the processing

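Of the member probes, the number called in total KO (2) was 1 with the median intensity scaled to the 75th percentile, without a filter on dim probes, with probes well above background on all arrays, with the contrast's own groups only and at 1.5-fold or more, and 1 to 3 when each array was left out. With slide as a block it was 2, with Arrdc1 lost and Txnip gained, and with array weights 2, with Arrdc1 lost and Arrdc4 gained. The number called in β KO (1) was 2 with normexp (offset 50) and with array weights, 0 with slide as a block and 0 at 1.5-fold or more, and 1 to 2 when each array was left out. For the difference between the KO effects (2) it was 1 with the deposited log2 table, without a filter and with wash batch as a block, 0 with slide as a block, and 1 to 4 when each array was left out, the 4 without replicate 5 of β WT or replicate 2 of β KO. Between the WT groups (6) it was 3 with probes well above background on all arrays, 2 with muscle and liver marker means as covariates, 2 with the muscle mean alone, 2 at 1.5-fold or more, and 5 to 6 when each array was left out. The setting with probes well above background on all arrays kept only 6 of the 10 member probes. Its counts of 1 in total KO and 3 between the WT groups are therefore out of 6. The cause of these shifts was otherwise not tested. The covariates of 1 list alone, and all alternatives of the Txnip and Arrdc4 correlation and of the Arrdc3 probe difference, were chosen after seeing the data.

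The correlation of Txnip with Arrdc4 in β KO (0.78) passed its threshold under both scalings to the 75th percentile, at 0.89 (processed signal) and 0.88 (median intensity). Leaving out each array gave -0.82 to -0.58 in total WT, 0.15 to 0.72 in total KO, 0.02 to 0.63 in β WT and 0.72 to 0.85 in β KO. With the replicate block, 2 member probes were called in total KO, 1 in β KO and 3 between the 2 KO effects, with the Ensembl probe of Arrdc3 added in total KO (0.47, adjusted p = 0.0176) and the brighter Arrdc1 probe lost (adjusted p = 0.057). No called difference of a member probe changed sign under any alternative. Over single probes and alternatives, 1735 values kept their side of the threshold, 30 gained it and 59 lost it. The quantile normalized values and the other scalings put the median of all probes within 0.09 of 0 in each comparison. A dim probe such as the second of Arrdc1 is limited by its signal over background.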
